A study of Mus musculus with 4 samples.

Results

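The immunoglobulin and early B cell genes described here are 10 genes that serve antibody production and B cell formation: the heavy chain constant region genes Igha and Ighm and the J chain gene Jchain, which are read strongly in plasma cells, and 7 genes of early B cells, Igll1, Vpreb1, Cd79a, Cd79b, Blk, Ebf1 and Pax5. The members are all probe sets whose platform symbol is or includes a member, with Igj taken as the older name of Jchain. That gave 33 probe sets, of which 30 are on both array types and 3 on the MOE430_2 type alone, out of 22626 probe sets on both types and 45037 on MOE430_2, and the 10 genes stand among 12393 named by a probe set of their own on both types. Of the 30, 12 passed a filter on low signal and were tested, and they cover 7 of the 10 genes. The other 18, among them all shared probe sets of Cd79a, Ebf1 and Pax5, are given as values only.

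The cells were granulocyte/monocyte progenitors (GMP), bone marrow precursors of neutrophils and monocytes purified by flow cytometry, from mice 10 to 16 weeks old. The groups were 2 arrays of GMP from Icsbp-deficient mice, each from a pool of at least 8 animals, and 2 arrays of GMP from Icsbp wild type mice, each from a pool of at least 10. Icsbp, whose gene is now named Irf8, is an interferon regulatory factor that acts in myeloid and B cell development. Each genotype had 1 array of the Affymetrix 430A type and 1 of the larger MOE430_2 type. The label of the wild type 430A sample gives a mixed C57/Bl6 and S129Ola background and no genotype. It was taken as wild type from the series' design text. For the other samples no strain background is given, and the sources used here do not say which part of Icsbp was deleted. The deposited signals were not on a common scale on the 430A type, with a trimmed mean of 167.1 on the Icsbp-deficient array and 498.5 on the wild type array, against 158.6 and 160.4 on MOE430_2. Each array was therefore scaled, and the arrays of a type were quantile normalized. Signals below are these normalized values, and ratios are Icsbp-deficient over wild type as log2(signal + 50), a scale that understates changes of low signals. Beside 5.6% of 7820 tested genes that rose or fell, Cebpa and Fcgr3 rose and Cd34 fell among 10 genes that define GMP, all tested. Their signals were high, with Mpo, the neutrophil and GMP myeloperoxidase, at 15834 and 30024 on the Icsbp-deficient arrays (430A and MOE430_2, the order used throughout) and 16938 and 28869 on the wild type arrays. Of the Irf8 probe sets the first read 2778 and 2732 on the Icsbp-deficient arrays and 3054 and 4887 on the wild type arrays (limma adjusted p = 0.124), and the second read 3268 and 1889 on the Icsbp-deficient arrays and 3070 and 1846 on the wild type arrays (limma adjusted p = 0.832). Since the deleted part is unknown, these probe sets may lie outside it and do not check the genotype labels.

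An antibody is built from heavy chains and light chains, and IgM is the heavy chain class made first, while IgA and other classes follow after class switching in mature B cells. IgA and IgM polymers are held together by the J chain. Before a B cell precursor has a light chain, the products of Igll1 and Vpreb1 together form the surrogate light chain, which pairs with the mu heavy chain in the pre-B cell receptor. Cd79a and Cd79b carry the signal of that receptor and of the later B cell receptor, Blk is a Src family kinase downstream of it, and Ebf1 and Pax5 are the transcription factors that set and hold B cell identity. In GMP these genes are not part of the myeloid programme. Low-level heavy chain constant region transcripts without an assembled antibody gene are known from haematopoietic cells other than B cells.

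Igha fell in Icsbp-deficient GMP on all 3 of its probe sets, and it was the only member gene with a probe set that passed the test. The probe set 1421653_a_at read 258 and 182 on the Icsbp-deficient arrays, against 953 and 663 on the wild type arrays. On each array type the Icsbp-deficient value lay below the wild type value. Its log2 ratios were -1.70 on 430A and -1.62 on MOE430_2, a mean of -1.66 ± 0.15 (moderated SE, n = 2 ratios), or 3.17-fold lower (limma adjusted p = 0.000375).

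The other Igha probe sets gave falls of like size. 1425763_x_at read 246 and 81.9 in Icsbp-deficient GMP and 656 and 518 in wild type GMP, a mean log2 ratio of -1.68 ± 0.21 (limma adjusted p = 0.00202), with -1.26 on 430A and -2.11 on MOE430_2. 1429381_x_at read 227 and 99.1 in Icsbp-deficient GMP and 634 and 355 in wild type GMP, a mean log2 ratio of -1.37 ± 0.17 (limma adjusted p = 0.00169). On each array type both probe sets were lower in Icsbp-deficient GMP. These are 3 readings of 1 gene and not independent of each other, and the suffix _x_at marks probe sets with probes that can also match other transcripts. Without array type as a block none of the 3 passed, at limma adjusted p of 0.506 (1421653_a_at), 0.813 (1425763_x_at) and 1.00 (1429381_x_at). None passed either on the scale as deposited, on which the 430A arrays differ in their trimmed means, and in the unblocked model leaving out an array in turn left 2 of them lower without the Icsbp-deficient 430A array and 0 without any of the other 3. The ratio of 1425763_x_at was -1.10 without the Icsbp-deficient MOE430_2 array, a fit that does not compare the genotypes within array type alone.

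The 3 Igha probe sets make 3 of 12 tested member probe sets that fell, and 0 rose. Of 13576 tested probe sets 5.13% passed, 2.14% falling and 2.99% rising. By gene, Igha alone fell of the 7 tested members, beside 2.34% falling of 7820 tested genes. At an unadjusted limma p under 0.05, 4 of the 12 were lower, 3 of them of Igha, and 3 were higher. Of all tested probe sets 9.27% were lower and 9.31% higher at that limit, or 18.6% together. All 3 Igha probe sets were at least 2-fold lower on both array types, as were 0.501% of tested probe sets. Of all tested probe sets 32.8% were lower and 30.0% higher on both array types, so the same sign on both is common. On every array each Igha probe set lay above the highest of 35 probe sets of 21 genes of other tissues, such as albumin and insulin, which GMP should not use. That highest value was 197 and 75.4 on the Icsbp-deficient arrays and 222 and 98.1 on the wild type arrays. In bulk samples such as these, fewer cells that carry a transcript and less of it in each cell cannot be told apart.

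**Figure D1:**
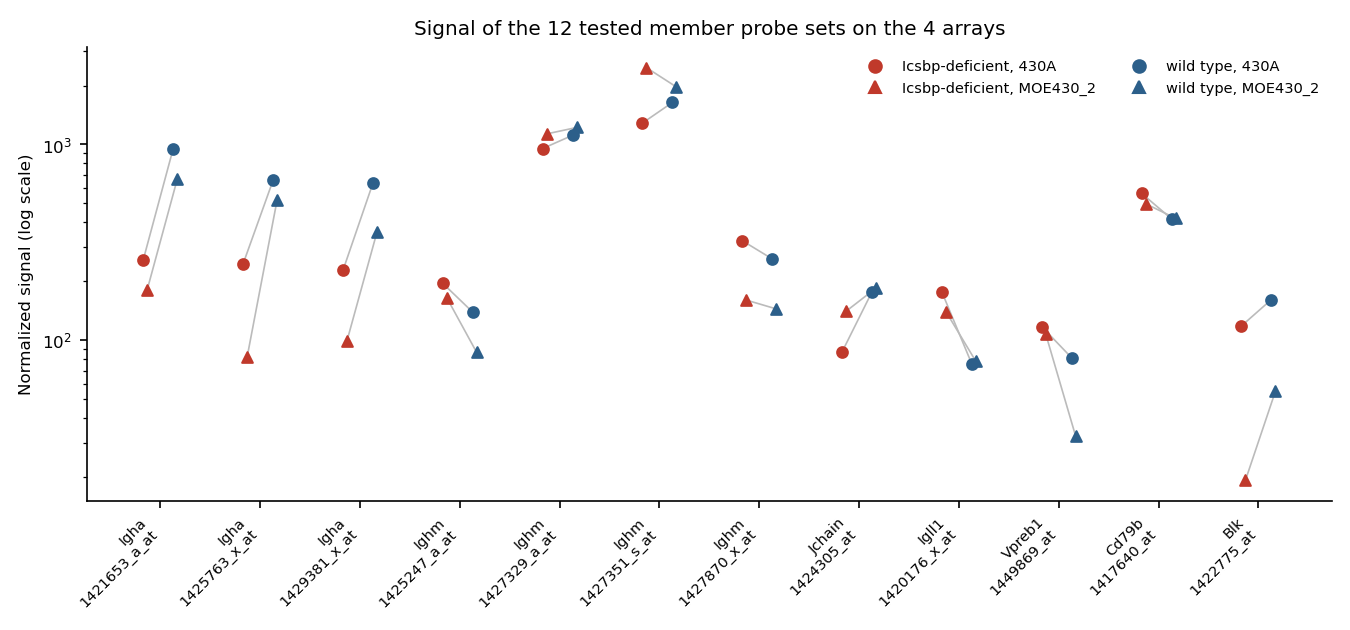
Normalized signal (log axis) of the 12 tested member probe sets. Red symbols are Icsbp-deficient and blue symbols wild type arrays, circles 430A and triangles MOE430_2, and a grey line joins the arrays of a type. The 3 Igha probe sets drop in Icsbp-deficient GMP on both types, while Ighm 1427329_a_at lies between 953 and 1221 on all 4 arrays.

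The genes nearest to Igha in their ratios on the 2 array types were Gata2, Krt18, Cd24a, Cd34 and Armcx2, at Euclidean distances of 0.119 to 0.249 over 2 ratios. Gata2, a factor of stem cells and of mast cell, basophil and erythroid precursors, had log2 ratios of -1.82 and -1.62. Cd34, a surface antigen of progenitors, had log2 ratios of -1.62 and -1.84, with signals of 818 and 819 in Icsbp-deficient GMP and 2623 and 3062 in wild type GMP. Cd24a, a surface protein of erythroid and lymphoid precursors and of granulocytes, had -1.49 and -1.66. Krt18, a keratin of simple epithelia, had -1.75 and -1.80, and Armcx2 had -1.46 and -1.60. These are likenesses over 2 ratios and say nothing of shared control. Of 10 erythroid genes 5 were tested and 2 fell, the carbonic anhydrases Car1 and Car2, beside 2.34% of tested genes that fell. The summed signal of the 5 was 683 and 214 in Icsbp-deficient GMP and 1452 and 1955 in wild type GMP. The part of erythroid cells in the Igha ratios was not tested.

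Ighm, which encodes the mu heavy chain, did not pass the test where Igha did. Of its 15 probe sets 4 were tested and by limma 0 passed, with 0 lower and 1 higher at an unadjusted limma p under 0.05. 1427351_s_at read 1287 and 2469 in Icsbp-deficient GMP and 1639 and 1967 in wild type GMP. Its log2 ratios had opposite signs, -0.34 on 430A and 0.32 on MOE430_2, and their mean was -0.01 ± 0.16 (limma adjusted p = 0.986). 1427329_a_at read 953 and 1132 in Icsbp-deficient GMP and 1114 and 1221 in wild type GMP, a mean log2 ratio of -0.16 ± 0.14 (limma adjusted p = 0.599). The array types did not give a common order of the genotypes at the first probe set, and at the second the difference was about the size of its error.

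The other tested Ighm probe sets had mean ratios above 0 that did not pass. 1425247_a_at read 195 and 165 in Icsbp-deficient GMP and 139 and 86.6 in wild type GMP, higher on both array types. Its mean log2 ratio was 0.51 ± 0.20 (limma adjusted p = 0.20). 1427870_x_at read 323 and 160 in Icsbp-deficient GMP and 260 and 145 in wild type GMP. Its log2 ratios were 0.26 and 0.11, with a mean of 0.19 ± 0.18 (limma adjusted p = 0.637). The other 11 Ighm probe sets lay under the filter. Of these, 4 carry further symbols, of heavy chain variable genes or of Ighg3, so their signal cannot be given to Ighm alone. The lowest ratio of these 11 was that of 1425385_a_at, which read 8.98 and 32.3 in Icsbp-deficient GMP and 80.9 and 60.5 in wild type GMP, levels within the range of the genes of other tissues. Over all 18 member probe sets that were not tested, signals lay between 0.65 and 123 and mean log2 ratios between -0.79 and 0.66.

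Igha and Ighm lie on the same chromosome, with the other constant region genes Ighe, Ighg2c, Ighg2b, Ighg1, Ighg3 and Ighd between them in the gene order of RefSeq assembly GRCm38.p6. The only one of these genes named by a probe set on both types that is not shared with a member is Ighg3, whose 4 such probe sets read at most 42.8 on any array and were not tested. The difference between the Igha and Ighm ratios was not tested.

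Other immunoglobulin transcripts were looked at by symbol, a choice made after their values were seen. There were 37 further heavy and light chain probe sets on both types, 5 of them were tested, and by limma 0 passed, also 0 at an unadjusted p under 0.05. Of all tested probe sets 5.13% passed and 18.6% had an unadjusted limma p under 0.05, so 5 are too few to differ from these shares. The kappa light chain constant region, Igkc, is named by 3 probe sets that also carry variable gene symbols. Of these, 1427660_x_at, read 930 and 1463 in Icsbp-deficient GMP and 1198 and 1374 in wild type GMP, a mean log2 ratio of -0.13 ± 0.15 (limma adjusted p = 0.706). The lowest mean of the 3 was that of 1452417_x_at at -0.37 ± 0.21 (limma adjusted p = 0.396), with -0.88 on 430A and 0.13 on MOE430_2. Signals at the kappa constant region thus had no common sign on the array types.

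Jchain, the plasma cell protein that joins IgA and IgM into polymers, was lower on both array types without passing the test. 1424305_at, its only probe set, read 87.3 and 141 in Icsbp-deficient GMP and 177 and 185 in wild type GMP. The array types were normalized apart, so only values of the same type are set against each other. The log2 ratios were -0.73 and -0.30, a mean of -0.51 ± 0.21 (limma adjusted p = 0.215). On the 430A arrays both values were below the highest probe set of the other-tissue list, and on the MOE430_2 arrays both were above it.

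The surrogate light chain genes had higher signals in Icsbp-deficient GMP on both array types, without passing the test. Igll1, the lambda 5 chain, read 176 and 140 in Icsbp-deficient GMP and 75.5 and 78.0 in wild type GMP on 1420176_x_at. Igll1 had a mean log2 ratio of 0.71 ± 0.21 there (limma adjusted p = 0.0969). Its second probe set, 1420177_at, lay under the filter and read 57.5 and 38.9 in Icsbp-deficient GMP and 16.95 and 6.90 in wild type GMP. It had log2 ratios of 0.68 and 0.64, which are near those of the first, 0.85 and 0.57.

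Vpreb1, the partner of lambda 5, read 117 and 107 in Icsbp-deficient GMP and 81.3 and 32.3 in wild type GMP on 1449869_at. The mean log2 ratio was 0.64 ± 0.24 (limma adjusted p = 0.189), with 0.35 on 430A and 0.94 on MOE430_2. A further probe set, 1422416_s_at, also names the near-identical Vpreb2 and was not tested. It read 81.6 and 64.1 in Icsbp-deficient GMP and 79.6 and 38.9 in wild type GMP. Set beside the other-tissue genes, on the 430A arrays and on the wild type MOE430_2 array Igll1 and Vpreb1 lay below the highest probe set of that list, and on the Icsbp-deficient MOE430_2 array 1420176_x_at and 1449869_at lay above it.

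The genes nearest to Igll1 in their 2 ratios were Gsr, Sirpa, Gng11, Etv2 and Arap2, at distances of 0.00944 to 0.0464. Of these Gsr (glutathione reductase), Sirpa, Gng11 and Arap2 passed the test at limma adjusted p of 0.0087, 0.0198, 0.0371 and 0.0363, and Etv2 had an adjusted p of 0.10. Ratios of this size were thus called for some genes and not for Igll1, whose standard error was 0.21.

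Igll1 and Vpreb1 are neighbours with no gene between them in the RefSeq order. Their promoter windows, and that of Jchain, are shown because Igll1 and Vpreb1 were higher, and Jchain lower, on both array types without passing the test. The windows are 300 bases of RefSeq on GRCm38.p6, most of them before the start of the gene, and 6 of the 10 members have 7 windows in that table. Capitals mark matches to the EBF1 core CCCNNGGG, which reads the same on both strands, and to the E box CAGNTG on either strand. The sequences are those of chr16:16863936-16864235 (Igll1), chr16:16869206-16869505 (Vpreb1) and chr5:88527848-88528147 (Jchain), each on the minus strand and written 5′ to 3′.
Igll1: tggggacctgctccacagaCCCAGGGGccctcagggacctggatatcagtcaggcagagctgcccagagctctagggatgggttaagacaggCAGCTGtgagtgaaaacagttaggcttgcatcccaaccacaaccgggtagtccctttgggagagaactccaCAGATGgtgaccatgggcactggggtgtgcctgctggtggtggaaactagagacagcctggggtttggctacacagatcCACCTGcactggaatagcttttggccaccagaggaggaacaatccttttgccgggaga
Vpreb1: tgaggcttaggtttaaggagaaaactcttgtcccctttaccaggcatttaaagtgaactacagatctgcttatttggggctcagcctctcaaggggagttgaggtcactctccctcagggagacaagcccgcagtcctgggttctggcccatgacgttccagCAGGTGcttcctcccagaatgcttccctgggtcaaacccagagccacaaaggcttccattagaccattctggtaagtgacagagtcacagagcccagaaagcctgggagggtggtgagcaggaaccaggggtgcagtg
Jchain: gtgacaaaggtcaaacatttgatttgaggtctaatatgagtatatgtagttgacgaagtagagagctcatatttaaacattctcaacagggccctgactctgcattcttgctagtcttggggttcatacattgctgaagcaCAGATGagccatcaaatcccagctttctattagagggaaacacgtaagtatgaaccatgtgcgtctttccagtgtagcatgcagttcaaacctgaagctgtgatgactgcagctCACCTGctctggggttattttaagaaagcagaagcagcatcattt

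The Igll1 window holds 1 EBF1 core and 3 E boxes, the Vpreb1 window 0 and 1, and the Jchain window 0 and 2, with no overlap between the motifs. Of the 7 member windows 1 holds the EBF1 core and 4 an E box, against 13.67% and 51.42% of all 32851 windows of 300 bases. The Ets-IRF composite (GGAA, any 2 bases, GAAA), to which IRF8 binds with Ets factors, was searched on both strands and is in 0 of the 7 windows and in 2.715% of all windows. The interferon-stimulated response element (GAAA, any 2 bases, GAAA) is in 1 of the 7, an Ebf1 window, and in 3.443% of all, and its letters can overlap those of the composite. A match describes letters in these windows, and no match says nothing of binding elsewhere.

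Cd79b encodes the Ig-beta chain of the B cell receptor. Its probe set 1417640_at read 563 and 498 in Icsbp-deficient GMP and 417 and 420 in wild type GMP. It was higher on both array types, but the difference was small, with a mean log2 ratio of 0.31 ± 0.15 (limma adjusted p = 0.326). It was the only early B cell probe set above the highest of the other-tissue list on all 4 arrays.

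Cd79a, which forms a heterodimer with Cd79b on B cells, read 101 and 10.3 in Icsbp-deficient GMP and 108 and 6.27 in wild type GMP on 1418830_at. It was not tested, its log2 ratios were -0.07 and 0.10, and it lay within the range of the other-tissue list on each array. Signals of different probe sets are not on a common scale, so no ratio of the partners is given. For the same reason the other-tissue list is only a rough guide to background. Blk read 118 and 19.3 in Icsbp-deficient GMP and 161 and 54.8 in wild type GMP on 1422775_at. Its log2 ratios were -0.33 and -0.60, with a mean of -0.46 ± 0.23 (limma adjusted p = 0.325). Blk was the member just inside the filter, at a mean signal of 76.8, and the Ighm probe set 1452535_at was just outside at 74.2.

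The transcription factors Ebf1 and Pax5 were not above the other-tissue genes on any array. Of 3 shared Ebf1 probe sets, 1416302_at read 22.8 and 6.90 in Icsbp-deficient GMP and 47.7 and 17.4 in wild type GMP. A second, 1416301_a_at, read 1.25 and 2.66 in Icsbp-deficient GMP and 0.65 and 2.66 in wild type GMP, and 1448293_at read 3.15 and 18.0 in Icsbp-deficient GMP and 6.55 and 18.3 in wild type GMP. Pax5 read 21.6 and 56.1 in Icsbp-deficient GMP and 20.3 and 44.0 in wild type GMP on 1421765_at. The log2 ratios of these 4 probe sets lay between -0.43 and 0.17, and none was tested.

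Ebf1 and Pax5 have the 3 probe sets that are on MOE430_2 alone, where 1 array a genotype allows no test. The Ebf1 probe sets 1439789_at and 1457441_at read 15.5 and 14.9 in Icsbp-deficient GMP, against 20.7 and 2.04 in wild type GMP. The Pax5 probe set 1454401_at read 56.3 in Icsbp-deficient GMP and 33.2 in wild type GMP, a log2 ratio of 0.35. On the log2(signal + 50) scale, on which a low pair such as 14.9 against 2.04 gives a ratio of only 0.32, none of the 3 reached a 2-fold difference. On that scale 0.893% of 45037 probe sets of the type were at least 2-fold higher and 0.768% at least 2-fold lower.

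**Figure D2:**
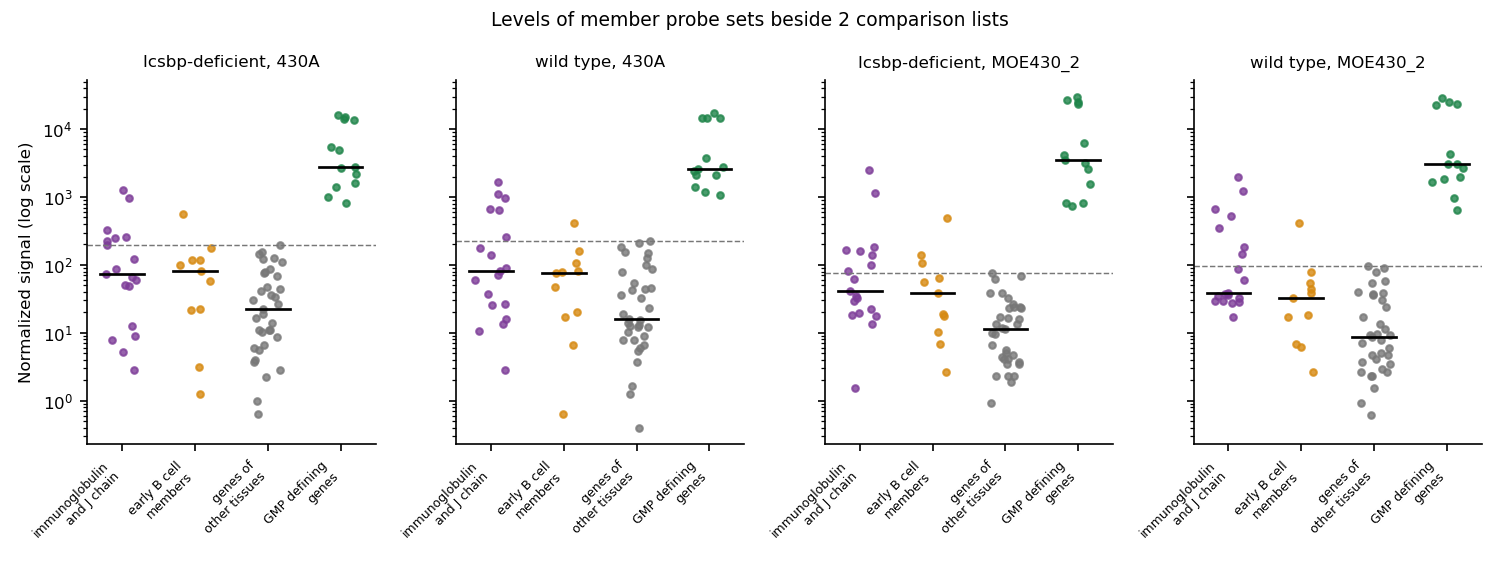
Normalized signal (log axis) of the 30 shared member probe sets on each array, beside probe sets of genes of other tissues and of genes that define GMP. Black bars are medians and the dashed line is the highest other-tissue probe set, which 7 member probe sets exceed on all 4 arrays: 3 of Igha, 3 of Ighm and that of Cd79b.

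Across all 30 shared probe sets the members had no common direction. Of 19 probe sets of Igha, Ighm and Jchain, 8 were lower and 3 higher on both array types, and of 11 of the early B cell genes 3 were lower and 6 higher. Among all 22626 shared probe sets 29.3% were lower and 28.5% higher on both types. The median log2 ratio was -0.04 for the 19 probe sets, 0.10 for the 11 and -0.003 for all shared probe sets. The difference between the plasma cell and the early B cell members was not tested, because the genes were chosen with results known.

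**Figure D3:**
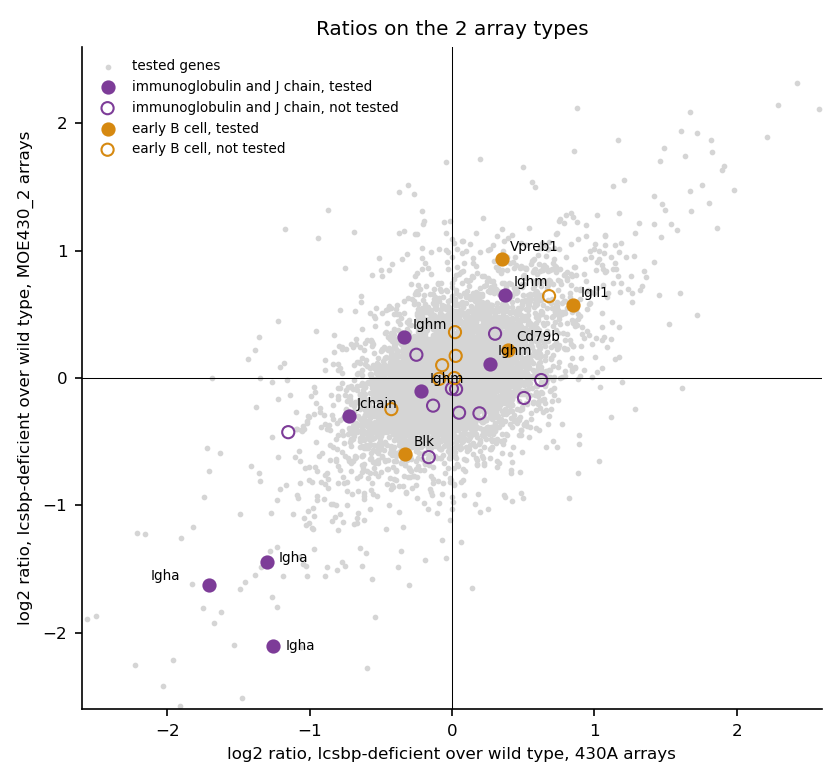
Log2 ratios of Icsbp-deficient over wild type on 430A (horizontal) and MOE430_2 (vertical) for 30 member probe sets over 7820 tested genes in grey, of which 11 lie outside the axes. Filled symbols were tested and open symbols were not. The 3 Igha probe sets lie lowest of the member probe sets, with ratios of -1.26 to -1.70 on 430A and -1.44 to -2.11 on MOE430_2.

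Other genes of B cells gave no common movement. Of 34 listed genes 29 were on both array types and 14 were tested, of which 1 rose and 1 fell. Of 7820 tested genes 5.6% passed, 3.26% rising and 2.34% falling. Cd72, a co-receptor that dampens B cell receptor signals and is also found on myeloid cells, read 34.5 and 73.0 in Icsbp-deficient GMP and 232 and 185 in wild type GMP. It fell by 1.34 ± 0.24 on the log2 scale (limma adjusted p = 0.0136). The Icsbp-deficient values of Cd72 lay below the filter's cut of 76.8, so it passed the filter through the wild type values. Prkcb, protein kinase C beta, read 834 and 1122 in Icsbp-deficient GMP and 509 and 554 in wild type GMP, and rose by 0.81 ± 0.15 (limma adjusted p = 0.0151).

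The list's median log2 ratio was 0.05, against -0.01 for all tested genes. Genes that define B lineage cells were among the 15 not tested. Rag1, a subunit of the antigen receptor recombinase, read 11.2 and 20.8 in Icsbp-deficient GMP and 10.6 and 12.5 in wild type GMP. Its partner Rag2 read 8.40 and 3.76 in Icsbp-deficient GMP and 8.35 and 5.02 in wild type GMP. Pou2af1, a B cell coactivator of octamer factors, read 34.2 and 28.4 in Icsbp-deficient GMP and 36.3 and 26.6 in wild type GMP.

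Of 24 plasma cell genes 23 were on both array types and 17 were tested, and by the tested probe set of highest mean signal for each gene 0 rose and 2 fell. At an unadjusted limma p under 0.05, 4 were lower (Ell2, Prg2, Txndc5 and Fkbp11) and 2 higher (Sdc1 and Edem1), beside 9.95% lower and 9.55% higher, or 19.5% together, of tested genes. Edem1, which acts in the disposal of misfolded proteins, had a ratio of 0.40 ± 0.14 (limma adjusted p = 0.143), while its second tested probe set rose by 0.61 ± 0.14 (limma adjusted p = 0.0347). The falls were Ell2, an elongation factor that favours the secreted form of heavy chain messages, at -1.09 ± 0.22 (limma adjusted p = 0.0222), and Prg2, at -2.94 ± 0.40 (limma adjusted p = 0.00311). Ell2 read 33.3 and 58.1 in Icsbp-deficient GMP and 145 and 160 in wild type GMP. Its Icsbp-deficient values lay below the filter's cut of 76.8, so it passed the filter through the wild type values. Of the Ell2 values only that of the wild type MOE430_2 array lay above the highest other-tissue probe set of its array. Prg2 is the eosinophil major basic protein and is foremost an eosinophil gene. Xbp1, the factor that expands the secretory pathway of plasma cells, read 5009 and 8197 in Icsbp-deficient GMP and 5940 and 7256 in wild type GMP, with a mean log2 ratio of -0.03 ± 0.12 (limma adjusted p = 0.91).

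Sdc1, the plasma cell surface marker CD138, read 152 and 126 in Icsbp-deficient GMP and 82.5 and 44.3 in wild type GMP (0.75 ± 0.22, limma adjusted p = 0.0912). The other Sdc1 probe sets were not tested. Their log2 ratios on 430A and MOE430_2 were 0.05 and -0.03, 0.03 and 0.77, and 0.03 and 0.05. Txndc5, a protein disulfide isomerase of the endoplasmic reticulum, read 752 and 737 in Icsbp-deficient GMP and 1352 and 953 in wild type GMP (-0.58 ± 0.16, limma adjusted p = 0.069). Its second tested probe set read 1255 and 622 in Icsbp-deficient GMP and 1305 and 612 in wild type GMP (-0.02 ± 0.14, limma adjusted p = 0.968). Fkbp11, a prolyl isomerase of secretory cells, read 410 and 350 in Icsbp-deficient GMP and 660 and 457 in wild type GMP (-0.48 ± 0.16, limma adjusted p = 0.129). The second tested probe set of Fkbp11 had a ratio of the other sign (0.32 ± 0.25, limma adjusted p = 0.546). Listed plasma cell genes thus lay on both sides of 0, with no common direction.

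The plasma cell regulators Prdm1 and Irf4 and the survival receptor Tnfrsf17 were not tested. Of the Irf4 probe sets one read 98.2 and 17.1 in Icsbp-deficient GMP and 31.4 and 7.68 in wild type GMP, and the other read 9.95 and 4.70 in Icsbp-deficient GMP and 5.05 and 2.35 in wild type GMP. Prdm1 read 119 and 32.9 in Icsbp-deficient GMP and 78.5 and 47.6 in wild type GMP. Tnfrsf17 read 20.6 and 10.3 in Icsbp-deficient GMP and 52.4 and 2.35 in wild type GMP. The list's summed signal over its 17 tested genes was 33993 and 41561 in Icsbp-deficient GMP and 35815 and 43092 in wild type GMP, and its median log2 ratio was -0.10. The largest part of that sum was Sec61b, at 7043 and 10278 in Icsbp-deficient GMP and 6513 and 9960 in wild type GMP. The sum thus follows such genes of high signal and is no measure of plasma cells. Whether plasma cells contribute to the Igha signal was not tested.

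Of 16 genes of plasmacytoid dendritic cells, another bone marrow cell that carries heavy chain transcripts, 5 were tested. Of these 1 rose, the nucleic acid sensor Tlr7, beside 3.26% of tested genes. Tlr7 read 210 and 162 in Icsbp-deficient GMP and 24.6 and 32.0 in wild type GMP, a mean log2 ratio of 1.59 ± 0.23 (limma adjusted p = 0.0043). Its wild type values lay below the filter's cut of 76.8, so it passed the filter through the Icsbp-deficient values. The Tlr7 probe sets that were not tested had log2 ratios of 0.73 and 0.25, and of 0.71 and -0.46. The list's median log2 ratio was 0.001, and its summed signal over 5 tested genes was 999 and 944 in Icsbp-deficient GMP and 995 and 755 in wild type GMP. Of 20 T cell and natural killer cell genes 14 were on both types and only Zap70 was tested, at 0.31 ± 0.16 (limma adjusted p = 0.353). The parts of these cell types in the member ratios were not tested.

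**Figure D4:**
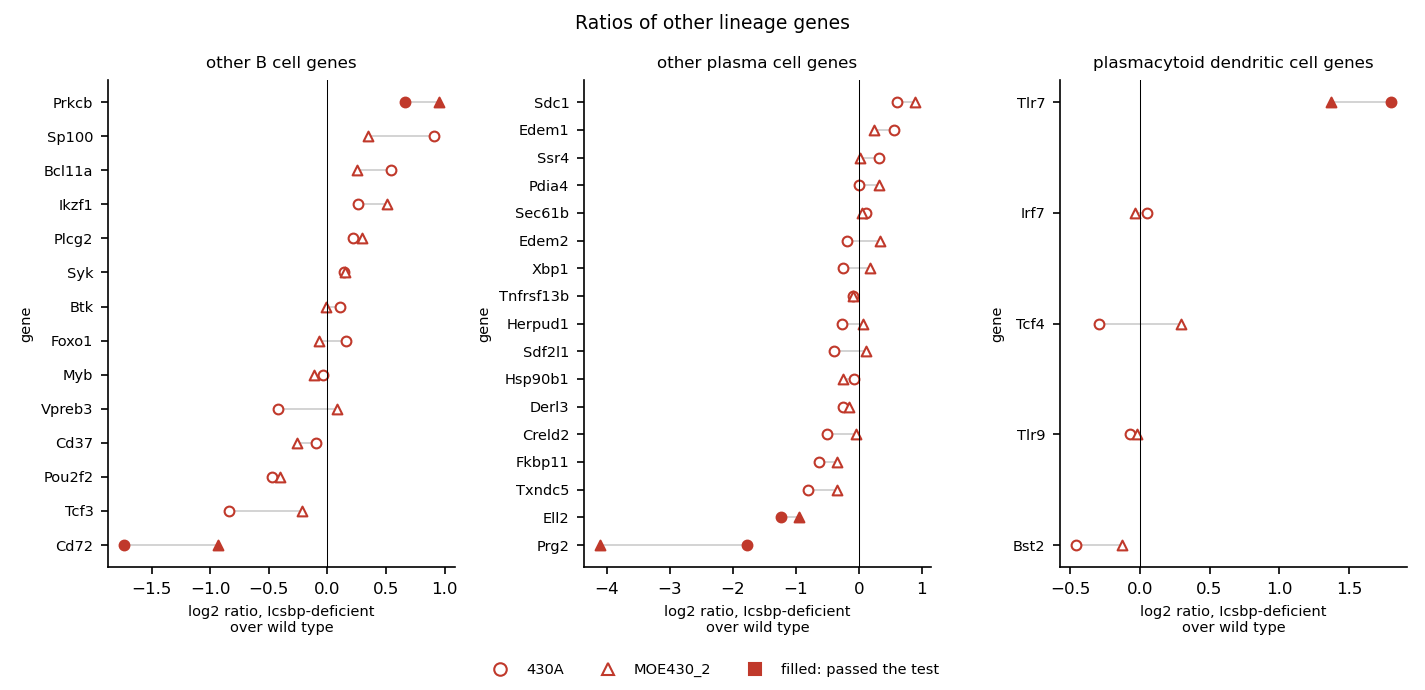
Log2 ratios of Icsbp-deficient over wild type for the tested genes of 3 lists, circles 430A and triangles MOE430_2, with filled symbols for genes that passed the test. Cd72, Ell2 and Prg2 lie left of 0 and Prkcb and Tlr7 right of it, and the horizontal scales differ between panels.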

How the data were processed

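The measurements are 4 Affymetrix arrays. The authors deposited 1 linear intensity (a signal) for each probe set and array. Per the submitters' processing notes GCOS was used for the MOE430_2 arrays; its settings, and the software for 430A, are unknown here. Labelling kits, per the labels' protocols, came from ENZO for Icsbp-deficient GMP on 430A and were one-cycle kits for both genotypes on MOE430_2. For wild type GMP on 430A no kit is named, so kit and genotype cannot be told apart there. The design text names a further Icsbp-deficient 430A preparation, which was not analysed here. After leaving out 64 control probe sets from the 22690 on both types, arrays were brought to a 2% trimmed mean of 500, transformed as log2(signal + 50) and quantile normalized within each type. The filter took out 9050 probe sets whose mean lay below the 40th percentile. The other 13576 were tested with limma 3.58.1 in R 4.3.3 (array type as a block, intensity trend, two-sided, Benjamini-Hochberg over all tested, threshold 0.05). This leaves 1 residual degree of freedom, with 8.89 prior, so ± comes mostly from other genes, and the number of arrays limits the precision. The residual is the disagreement of a probe set's ratios between the array types, where pool, array type and kit cannot be told apart. P-values thus do not measure the spread between mice or between pools alone.

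A gene of a list was represented by its tested probe set of highest mean signal, and lists kept only probe sets with 1 symbol (20380, with 691 of several and 1555 unnamed here). Symbols were updated through RefSeq of GRCm38.p6, which matched 20351. Probe sets on MOE430_2 alone were normalized with all of that type. The rule named all members (the Ighm probe sets under the filter are summarised), list genes that passed or changed at least 2-fold on both types, and the 5 genes nearest to Igha and to Igll1 in their 2 ratios; others named were picked for their known role after their values were seen. The members and lists were chosen with earlier results of these data known. Alternatives were other normalizations, offsets, filters and variance models, no block, and leaving out each array.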

Additional observations from a re-analysis of the deposited data

How the results depend on the processing

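The fall of the 3 Igha probe sets held its direction in all 10 alternatives with 4 arrays and passed in 8 of them, at mean log2 ratios of -2.09 to -0.93 for the 3 over those 10. With the values as deposited 0 member probe sets fell, and 0 probe sets in all rose or fell, as the deposited 430A scales differ and the median log2 ratio of tested probe sets is -0.65. Relative to that median the 3 Igha ratios were -1.44, -1.31 and -1.07. With the values as deposited Cd79b stood at -0.40, and Ighm at -0.17 (1425247_a_at) and -0.46 (1427870_x_at), each reversed. Relative to the same median they were 0.25, 0.48 and 0.19, with the sign of the main fit.

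The labels give no replicate number that pairs the genotypes, so the block is array type. With no array type block (no replicate block) 0 member probe sets fell and 0 rose, and in all 1 fell and 0 rose. Leaving out an array in turn, in that unblocked model since the blocked one cannot be run on 3 arrays, gave 0 to 2 member probe sets lower: 2 without the 430A Icsbp-deficient array, and 0 without the wild type 430A, the wild type MOE430_2 or the Icsbp-deficient MOE430_2 array. The Igha call thus rests on the block. Over all probe sets leaving out an array gave 22 to 25 higher and 14 to 30 lower. These fits set 1 array of a genotype against arrays of both types, which were normalized apart. Their ratios thus also hold the level difference between the types. Blk, at -0.33 and -0.60 within the types, ranged from -1.10 to 0.18. Ighm 1427351_s_at ranged from -0.47 to 0.45 and Ighm 1427870_x_at from -0.22 to 0.60. Without a change of sign, Vpreb1 moved to 0.31 without the wild type MOE430_2 array and 0.98 without the wild type 430A array, and Ighm 1425247_a_at to 0.28 without the wild type MOE430_2 array. Without the Icsbp-deficient 430A array Jchain moved to -0.28 and Ighm 1427329_a_at to -0.04, and without the Icsbp-deficient MOE430_2 array Ighm 1427329_a_at moved to -0.28 and Igha 1425763_x_at to -1.10.

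Without the filter 169 probe sets rose and 97 fell, and without the intensity trend 147 and 120, with the same 3 Igha probe sets among the calls. Of the B cell, plasma cell and plasmacytoid list genes 2 rose and 3 fell. This was 0 and 0 with values as deposited or no block, 1 lower without the filter and 1 higher without the intensity trend, and 0 higher and 1 lower leaving out any array. Normalizing all MOE430_2 probe sets together turned no member's sign. Members with signals in the range of other-tissue genes cannot be separated from background.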
